A study of Mus musculus with 8 samples.

Results

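The axon guidance genes described here are the ligands and receptors through which growing nerve fibres are attracted or repelled. They are the semaphorins with their plexin and neuropilin receptors, the ephrins with their Eph receptors, the Slits with their Robo receptors, and the netrins and draxin with Unc5 and Dcc receptors. Members were chosen by gene symbol alone. The symbols matched 72 of the 27249 genes in the table, and 67 of the 72 were measured well enough to be tested. The symbol pattern also took in Unc50, which is not a guidance gene and passed in no comparison except, with libraries scaled to their totals, as higher in GFP osteogenic cells. That left 37 ligands and 34 receptors.

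Guidance ligands are secreted or held at the cell surface, and most of their receptors act on the actin skeleton through small GTPases. Plexins carry a GTPase-activating domain, and Eph receptors are tyrosine kinases whose ephrin ligands can signal back into their own cell. Outside the nervous system the same genes pattern blood vessels: ephrin-B2 marks arteries and EphB4 veins, and semaphorins, Slits and netrins steer endothelial and mural cells.

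The cells were vascular smooth muscle cells in primary culture from mice, which contract the walls of arteries, and their polyadenylated RNA was sequenced. Cells overexpressing THOC5, part of the THO complex by which transcripts are handed on to nuclear export, were compared with cells overexpressing green fluorescent protein (GFP), whose genotype the labels give as WT. Each kind of cell was kept in osteogenic medium, named in the series design as Pi for 6 days, or in growth medium. Per the labels this gave 4 groups of 2 libraries: THOC5 cells in osteogenic medium, THOC5 cells in growth medium, GFP cells in osteogenic medium and GFP cells in growth medium, called by cell and medium below. No promoter, vector, mouse strain or age is stated in the labels, and whether the replicates of a group came from different cultures is not said.

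Libraries held 7058681 to 10581042 reads, and 21217 to 22482 genes had at least 1 read. Thoc5 itself held 1780.2 and 1937 normalized counts in THOC5 osteogenic libraries, 2155 and 1406 in THOC5 growth libraries, 649.5 and 615 in GFP osteogenic libraries, and 458 and 471 in GFP growth libraries. It was higher in THOC5 cells in osteogenic medium (log2 1.55 ± 0.15, limma adjusted p = 5.24e-05) and in growth medium (log2 1.90 ± 0.15, limma adjusted p = 0.00187). Acta2, the smooth muscle actin, lay at 9489 to 25293 normalized counts, and Myh11, the smooth muscle myosin, at 32.9 to 158, so both defining markers were present at these levels. On the leading principal component of these libraries (32.6% of variance) the GFP osteogenic libraries lay at 84.2 and 65.9 and the other 6 between -34.9 and -18.4. They make up a whole group, so no comparison with that group can be given without them. A normalized count is a read count scaled by the size factor of its library, and log2 changes are on the scale of log2(normalized count + 1), with their SE from limma for 2 libraries against 2. An increase or decrease is named as such where the limma p-value, Benjamini-Hochberg adjusted over all 22575 genes tested, was under 0.05.

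Promoter sequence is shown for 4 guidance genes that changed with the medium in GFP cells, so that the bases before them can be read beside their values. They are the 3 decreases and 1 increase with the smallest p among members with 1 annotated start in RefSeq (GRCm38.p6), a mean of at least 50 normalized counts and at least 150 of the 250 bases before the start outside every GENCODE M21 exon. The longest such stretch is printed. Slit3, Sema6d and Sema3f, with smaller p-values than these 4, are not shown, and the call of Epha2 was lost without some single libraries. Draxin is shown at chr4:148130699-148130914 on the minus strand, Unc5b at chr10:60831582-60831831 on the minus strand, Ephb6 at chr6:41605261-41605481 on the plus strand and Epha2 at chr4:141300971-141301220 on the plus strand. Each is written 5′ to 3′ on the strand of its gene, with motif matches in capitals.
Draxin: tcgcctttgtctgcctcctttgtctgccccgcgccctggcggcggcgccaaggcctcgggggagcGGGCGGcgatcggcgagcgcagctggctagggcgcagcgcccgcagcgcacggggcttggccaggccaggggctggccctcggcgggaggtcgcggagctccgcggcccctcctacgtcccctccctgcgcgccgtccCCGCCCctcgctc
Unc5b: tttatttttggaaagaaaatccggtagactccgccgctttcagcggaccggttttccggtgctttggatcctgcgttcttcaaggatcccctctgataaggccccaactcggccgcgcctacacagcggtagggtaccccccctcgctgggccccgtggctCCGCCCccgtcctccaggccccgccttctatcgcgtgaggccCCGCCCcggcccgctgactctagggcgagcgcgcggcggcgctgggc
Ephb6: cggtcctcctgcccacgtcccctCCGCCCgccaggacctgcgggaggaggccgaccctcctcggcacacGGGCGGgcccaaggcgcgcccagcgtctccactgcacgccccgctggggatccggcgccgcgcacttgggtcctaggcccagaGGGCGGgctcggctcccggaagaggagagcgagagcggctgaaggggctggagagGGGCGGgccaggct
Epha2: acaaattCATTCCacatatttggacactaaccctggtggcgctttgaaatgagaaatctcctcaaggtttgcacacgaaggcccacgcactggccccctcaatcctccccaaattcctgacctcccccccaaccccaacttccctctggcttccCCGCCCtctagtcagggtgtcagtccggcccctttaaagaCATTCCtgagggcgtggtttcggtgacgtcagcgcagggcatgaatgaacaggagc
The motifs searched on both strands were the TATA box core TATAAA, the GC box GGGCGG, the AP-1 element TGANTCA, the TEAD element GGAATG and the CArG box of serum response factor. On the other strand a GC box reads CCGCCC, and a TEAD element read in that way is CATTCC. No match overlapped one of another motif in the 4 stretches. The stretches of Draxin and Unc5b held 2 GC box matches each, that of Ephb6 held 4, and that of Epha2 held 1 GC box and 2 TEAD matches. GC content was 78.7% for Draxin, 66.8% for Unc5b, 76.5% for Ephb6 and 55.6% for Epha2. A GC box stood in the 250 bases before the start of 32.7% of all 32851 RefSeq promoters and in 59.4% of the 10908 promoters of genes with a mean of at least 50 normalized counts. It stood in 83.3% of the 42 promoters of members at that level, which belong to 35 genes, Unc50 among them. A TATAAA match was found in 12.4% of all promoters, a TGANTCA match in 6.75%, a GGAATG match in 12.6% and a CArG box in 1.47%, and among the 42 promoters these shares were 4.76%, 2.38%, 11.9% and 2.38%. Among the 10908 promoters of genes at that level they were 6.16%, 4.47%, 10.5% and 1.15%. A match is a description of the letters in this window.

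Guidance ligands and receptors ranged from abundant to barely measured in these cells. Of the 72 members, 40 averaged at least 50 normalized counts over the 8 libraries, 18 averaged under 10, and 11 were at 0 in at least 1 library. All 40 were among the 67 members tested, and of all 22575 genes tested 10655 averaged at least 50. Sema5b, Ntng1, Epha6, Epha8 and Robo4 did not pass the filter for testing, which asked for at least 1 normalized count in at least 2 libraries. A count of 0 allows up to 3 reads, or 2.59 to 3.99 normalized counts depending on the library, and this covers counting error only.

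Levels of different genes were set side by side per kilobase of annotated exon. In THOC5 osteogenic cells Slit3 stood at 298 normalized counts per kilobase, and in THOC5 growth cells at 332. In GFP osteogenic cells Sema3c led the ligands at 243 normalized counts per kilobase, Efnb2 followed at 154 and Efna5 at 146, and Slit3 lay at 64.3. In GFP growth cells the highest of the ligands was Slit3 at 298 normalized counts per kilobase, followed by Sema3c at 292, Efna5 at 202, Efnb2 at 184 and Sema3f at 179. The receptors were led by Plxnb2, at 718 normalized counts per kilobase in GFP osteogenic cells and 1163 in GFP growth cells. Plxna1 stood at 480 normalized counts per kilobase in GFP osteogenic and 442 in GFP growth cells, and Unc5b at 280 in GFP osteogenic and 543 in GFP growth cells, so the order of these receptors differed between the groups. Among the receptors most often paired with the leading ligands, Robo1 lay at 21.3 normalized counts per kilobase in GFP growth cells, Nrp1 at 157.0 and Nrp2 at 1.41.

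**Figure D1:**
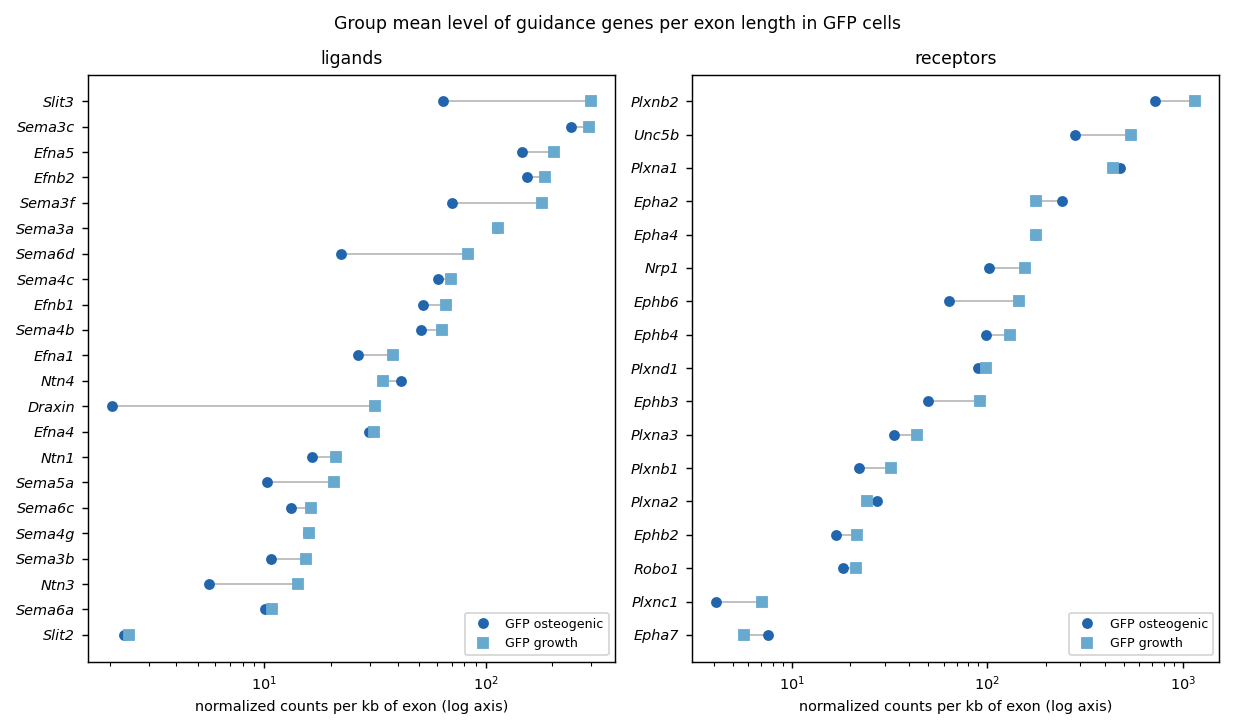
Group means of 2 GFP osteogenic libraries (circles) and 2 GFP growth libraries (squares) for the 39 guidance genes with a mean of at least 50 normalized counts, in normalized counts per kilobase of annotated exon on a log axis. Draxin has the widest gap among the ligands, and Plxnb2 is the rightmost receptor in both groups, at 718 in GFP osteogenic and 1163 in GFP growth cells.

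The medium comparison in GFP cells asked what osteogenic medium changed without added THOC5. Of the 67 tested members 23 passed, 3 higher and 20 lower in GFP osteogenic cells, and the 3 with increases were Sema3e, Efna3 and Epha2. That is 34.3% of those tested against 20.8% of all genes, and by direction 29.9% lower against 10.6% and 4.48% higher against 10.3%. Among genes with a mean of at least 50 normalized counts, 17 of the 40 members (42.5%) fell and 1 rose, against 19.1% and 18.9% of all such genes, so the share called in either direction (45.0%) was near the 38% of all genes at that level while the split by direction differed. These shares of all genes also stand beside the counts by family given below, each of which rests on few genes. The median log2 change was -0.32 over the tested members and 0.00 over all genes. In every one of the 20 decreases both GFP osteogenic libraries lay below the other 6 libraries, and in the 3 increases both lay above them. These members were called with the same GFP osteogenic libraries, which also stood apart on the leading principal component. How often such separation holds over all called genes was not counted, so whether it is particular to guidance genes cannot be said. With libraries scaled to their totals instead, which moves the median of all genes to 0.13, the count was 22 with 6 higher and 16 lower. Under that scaling 3721 of all 22575 genes were higher and 1687 lower. RNA was taken from bulk cultures, so fewer cells of a type and less RNA per cell cannot be told apart.

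Slit3, a secreted ligand of the Robo receptors (chromosome 11, 35121224 to 35708507, plus strand, GRCm38), held 1797 and 1814 normalized counts in THOC5 osteogenic libraries, 2085 and 1939 in THOC5 growth libraries, 336 and 444 in GFP osteogenic libraries, and 1921 and 1699 in GFP growth libraries. The GFP osteogenic libraries stood apart at the low end, and the other 6 lay between 1699 and 2085. Slit3 fell 4.67-fold in GFP osteogenic against GFP growth cells (log2 -2.22 ± 0.12, limma adjusted p = 2.04e-06). The other Slits were low: Slit2 lay between 34.7 and 81.1 normalized counts and Slit1 between 0.865 and 6.57, and neither passed.

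Draxin, a secreted repellent that binds Dcc and netrin-1 (chromosome 4, 148098437 to 148130698, minus strand), held 144 and 194 normalized counts in THOC5 osteogenic libraries, 221 and 263 in THOC5 growth libraries, 6.92 and 14.3 in GFP osteogenic libraries, and 158 and 170.2 in GFP growth libraries. The low values rest on 8 and 16 reads in the GFP osteogenic libraries, against 136 and 128 reads in the GFP growth libraries. No other guidance gene fell as far: the decrease was 15.0-fold (log2 -3.91 ± 0.27, limma adjusted p = 6.71e-06), and the +1 on the log scale understates changes at such low counts. Dcc, the receptor that draxin binds, was near the floor, between 0.939 and 7.16 normalized counts over all libraries.

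Sema6d, a transmembrane semaphorin that binds plexin-A1 (chromosome 2, 124089969 to 124667770, plus strand), held 994 and 991 normalized counts in THOC5 osteogenic libraries, 884 and 1126 in THOC5 growth libraries, 208 and 262 in GFP osteogenic libraries, and 907 and 852 in GFP growth libraries. It fell 3.75-fold in GFP cells (log2 -1.91 ± 0.13, limma adjusted p = 6.39e-06). Plxna1, its receptor, held 4327 and 4359 normalized counts in GFP osteogenic libraries and 4294 and 3706 in GFP growth libraries, and did not pass (log2 0.12, limma adjusted p = 0.396). With libraries scaled to their totals Plxna1 passed, as higher in GFP osteogenic cells. Sema6b, of the same class, held 23.4 and 14.3 normalized counts in GFP osteogenic libraries against 39.6 and 62.5 in GFP growth libraries and fell 2.63-fold (limma adjusted p = 0.0102), a call lost without GFP osteogenic replicate 2 (adjusted p = 0.0920) or GFP growth replicate 2 (adjusted p = 0.0833).

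Sema3f, a secreted class 3 semaphorin that signals through neuropilin-2 (chromosome 9, 107681500 to 107710475, minus strand), held 1008 and 1079 normalized counts in THOC5 osteogenic libraries, 983 and 1069.6 in THOC5 growth libraries, 351 and 378 in GFP osteogenic libraries, and 914 and 942 in GFP growth libraries. Its GFP osteogenic values were the lowest of the 4 groups, and it fell 2.54-fold (log2 -1.35 ± 0.09, limma adjusted p = 4.36e-06). The class did not move as a block: of 7 class 3 semaphorins tested, Sema3f fell, Sema3e rose and 5 did not pass. Sema3a, the classic collapsing factor of growth cones, held 1358 and 1744 normalized counts in GFP osteogenic libraries and 1493 and 1643 in GFP growth libraries. Sema3c, the most abundant of the class, held 1457 and 2014 in GFP osteogenic libraries and 1999.8 and 2173 in GFP growth libraries. Both had overlapping groups and missed the threshold (limma adjusted p = 0.918 for Sema3a and 0.191 for Sema3c).

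Sema3e, a ligand of plexin-D1, went the other way, at 8.18 and 5.63 normalized counts in THOC5 osteogenic libraries, 9.65 and 14.3 in THOC5 growth libraries, 38.9 and 28.6 in GFP osteogenic libraries, and 3.50 and 10.6 in GFP growth libraries. The GFP values rest on 45 and 32 reads in osteogenic medium and 3 and 8 reads in growth medium. It rose 4.75-fold (log2 2.25 ± 0.49, limma adjusted p = 0.00719), with an adjusted p of 0.0902 without GFP osteogenic replicate 1. Plxnd1, its receptor, held 689 and 615 normalized counts in GFP osteogenic libraries and 733 and 713 in GFP growth libraries and did not pass (limma adjusted p = 0.359). Sema3e and Efna3, Epha1, Sema6b and Plxna4 average under 50 normalized counts and were picked out after their values were seen.

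Sema5a, a transmembrane semaphorin with thrombospondin repeats, held 382 and 369.8 normalized counts in THOC5 osteogenic libraries, 462 and 466 in THOC5 growth libraries, 164 and 218 in GFP osteogenic libraries, and 410.2 and 364 in GFP growth libraries, and fell 2.04-fold in GFP cells (limma adjusted p = 2.93e-04). Sema7a, a lipid-anchored semaphorin read by plexin-C1, fell 2.21-fold, at 13.0 and 10.7 normalized counts in GFP osteogenic libraries against 28.0 and 26.6 in GFP growth libraries (limma adjusted p = 0.0203). Its call was lost without any single one of the 4 GFP libraries (adjusted p from 0.0605 to 0.0899). None of the 6 class 4 semaphorins, which signal through plexin-B receptors, passed in GFP cells, and Sema4b, the most abundant by raw level, held 262 and 312 normalized counts in GFP osteogenic libraries against 345 and 371 in GFP growth libraries (limma adjusted p = 0.0919).

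Among the netrins and netrin-G genes, 1 of 4 tested passed. Ntn3, a secreted netrin, held 93.6 and 95.7 normalized counts in THOC5 osteogenic libraries, 116 and 115 in THOC5 growth libraries, 24.2 and 33.1 in GFP osteogenic libraries, and 87.4 and 57.2 in GFP growth libraries, and fell 2.45-fold in GFP cells (limma adjusted p = 0.00217). Ntn1, the founding netrin, held 86.5 and 119 in GFP osteogenic libraries and 150.3 and 114 in GFP growth libraries, and Ntn4, a basement membrane netrin, held 157 and 154 against 128 and 129. Both missed the threshold (limma adjusted p = 0.218 for Ntn1 and 0.336 for Ntn4).

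Of the ephrin-A genes tested, 1 of 5 rose and 1 fell. Efna5, a lipid-anchored ephrin, held 767 and 761 normalized counts in THOC5 osteogenic libraries, 807 and 717 in THOC5 growth libraries, 494 and 684 in GFP osteogenic libraries, and 843 and 789.6 in GFP growth libraries. It fell 1.40-fold in GFP cells (limma adjusted p = 0.0234), but not without GFP osteogenic replicate 1, either THOC5 osteogenic library or either GFP growth library (adjusted p from 0.0598 to 0.187). Efna3 rose 3.90-fold at a low level, with 31.1 and 20.6 normalized counts in GFP osteogenic libraries against 8.16 and 3.99 in GFP growth libraries (limma adjusted p = 0.00972). Without GFP osteogenic replicate 1 or GFP growth replicate 2 its adjusted p was 0.107 and 0.0602, and its exons overlap those of Gm15998 on the other strand over 14.1% of their length, which a kit without strand cannot separate. Efnb2, the arterial ephrin, held 1107 and 998 normalized counts in GFP osteogenic libraries and 1231 and 1296 in GFP growth libraries (limma adjusted p = 0.0670). Of the 3 ephrin-B genes 0 passed. All 3 had an unadjusted limma p under 0.05, as did 7283 of all 22575 genes. Their log2 changes differed in sign, at -0.34 for Efnb1, -0.26 for Efnb2 and 1.36 for Efnb3.

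**Figure D2:**
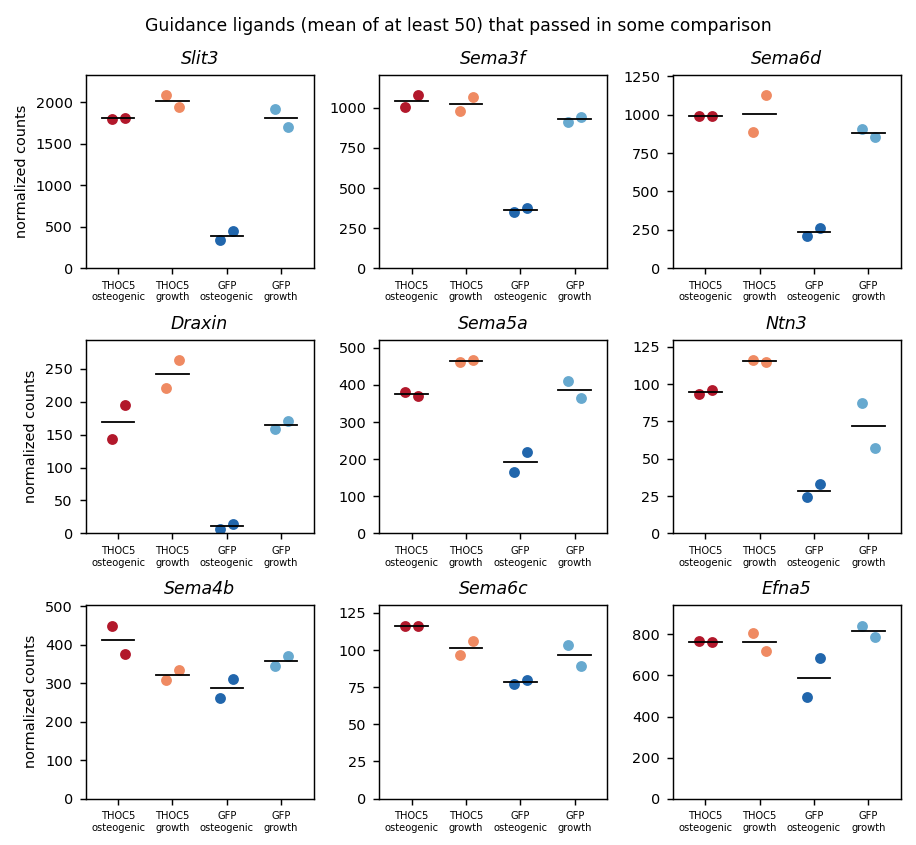
Normalized counts of guidance ligands with a mean of at least 50 that passed in some comparison, 1 panel a gene, with a point per library, a bar at the mean of 2 libraries, and the groups THOC5 osteogenic, THOC5 growth, GFP osteogenic and GFP growth along the horizontal axis. Both GFP osteogenic points lie below the other 6 in each panel but that of Sema4b, where GFP osteogenic replicate 2 (312) overlaps the THOC5 growth libraries (309 and 334).

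Of the receptors, 31 were tested in GFP cells, of which 11 fell (35.5%) and 1 rose (3.23%), against 10.6% and 10.3% of all genes. Among receptors with a mean of at least 50 normalized counts 10 of 17 fell (58.8%) and 1 rose (5.88%). Of all genes at that level 19.1% fell and 18.9% rose. Unc5b, the repulsive netrin receptor of blood vessels (chromosome 10, 60762593 to 60831581, minus strand), held 3499 and 3585 normalized counts in THOC5 osteogenic libraries, 3437 and 3724 in THOC5 growth libraries, 1699 and 1811 in GFP osteogenic libraries, and 3338 and 3454 in GFP growth libraries. The GFP osteogenic pair lay below the other 6 libraries, which ran from 3338 to 3724. It fell 1.94-fold in GFP cells (log2 -0.95 ± 0.08, limma adjusted p = 2.09e-05). The other Unc5 receptors were low, with Unc5c at 7.78 to 15.4 normalized counts, Unc5d at 3.86 to 8.18 and Unc5a at 0 to 3.86, and none passed.

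Of the 5 EphB receptors 4 fell in GFP cells, and the other, Ephb1, lay at 0.865 to 7.27 normalized counts and did not pass. Ephb6, an EphB receptor whose kinase domain is inactive (chromosome 6, 41605482 to 41620509, plus strand), held 569.8 and 565 normalized counts in THOC5 osteogenic libraries, 527 and 641 in THOC5 growth libraries, 243 and 241 in GFP osteogenic libraries, and 563 and 539.7 in GFP growth libraries. Ephb3 (chromosome 16, 21204755 to 21223305, plus strand) held 676 and 687 in THOC5 osteogenic libraries, 696 and 671 in THOC5 growth libraries, 313 and 351 in GFP osteogenic libraries, and 643 and 572 in GFP growth libraries. Ephb6 fell 2.27-fold (log2 -1.19 ± 0.10, limma adjusted p = 2.69e-05) and Ephb3 1.83-fold (log2 -0.87 ± 0.10, limma adjusted p = 1.21e-04), with the GFP osteogenic libraries below all others.

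Ephb4, the venous partner of ephrin-B2, held 656 and 643 normalized counts in THOC5 osteogenic libraries, 581 and 606 in THOC5 growth libraries, 481 and 435 in GFP osteogenic libraries, and 619 and 594 in GFP growth libraries, a 1.33-fold decrease in GFP cells (limma adjusted p = 0.00748). Ephb2 held 305 and 342 normalized counts in THOC5 osteogenic libraries, 380.4 and 360.0 in THOC5 growth libraries, 208 and 216 in GFP osteogenic libraries, and 273 and 275 in GFP growth libraries. Its 1.29-fold decrease in GFP cells (limma adjusted p = 0.0248) was lost without any single one of the 4 GFP libraries, at adjusted p from 0.0600 to 0.122. With libraries scaled to their totals Ephb2 and Ephb4 no longer passed in GFP cells, while Ephb3 and Ephb6 did.

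EphA receptors had mixed values, with 1 of 7 tested higher and 1 lower. Epha2, an EphA receptor also found on epithelial and tumour cells (chromosome 4, 141301240 to 141329384, plus strand), held 752 and 763 normalized counts in THOC5 osteogenic libraries, 833 and 694 in THOC5 growth libraries, 1202 and 1052 in GFP osteogenic libraries, and 910.2 and 759 in GFP growth libraries. It rose 1.35-fold in GFP cells (log2 0.44 ± 0.12, limma adjusted p = 0.0218), a call lost without either THOC5 osteogenic library, GFP osteogenic replicate 1 or GFP growth replicate 2 (adjusted p from 0.0550 to 0.188). Epha4, the most abundant EphA by raw level, held 1266 and 1551 in GFP osteogenic libraries and 1464 and 1412 in GFP growth libraries, and the groups overlapped (limma adjusted p = 0.856). Epha1 fell 2.44-fold, at 15.6 and 29.5 normalized counts in GFP osteogenic libraries against 60.6 and 47.9 in GFP growth libraries (limma adjusted p = 0.00906), with an adjusted p of 0.0834 without GFP osteogenic replicate 1 and 0.0589 without GFP growth replicate 1.

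Plexins, the semaphorin receptors, fell in 4 of 9 cases. Plxnb2, the most abundant guidance gene of the 72 by raw level (chromosome 15, 89155549 to 89180788, minus strand), held 9582 and 9569 normalized counts in THOC5 osteogenic libraries, 8609.7 and 8936 in THOC5 growth libraries, 5287 and 5807 in GFP osteogenic libraries, and 8909 and 9053 in GFP growth libraries. It fell 1.62-fold in GFP cells (log2 -0.70 ± 0.08, limma adjusted p = 2.09e-04). Plxnb1, the receptor of Sema4d, held 315 and 309 normalized counts in THOC5 osteogenic libraries, 313 and 353 in THOC5 growth libraries, 209 and 214 in GFP osteogenic libraries, and 311 and 311 in GFP growth libraries, a 1.47-fold decrease in GFP cells (limma adjusted p = 0.00281).

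Plxnc1, the Sema7a receptor, held 72.7 and 77.9 normalized counts in THOC5 osteogenic libraries, 60.8 and 57.3 in THOC5 growth libraries, 35.5 and 33.1 in GFP osteogenic libraries, and 65.3 and 53.2 in GFP growth libraries. It fell 1.70-fold in GFP cells (limma adjusted p = 0.0160), but not without either GFP osteogenic library or GFP growth replicate 1 (adjusted p from 0.0633 to 0.0954). Plxna3, which pairs with neuropilins, held 248 and 278 in GFP osteogenic libraries and 365 and 322 in GFP growth libraries, and its 1.30-fold decrease (limma adjusted p = 0.0495) was lost without any single one of 6 libraries, the 4 GFP and the 2 THOC5 osteogenic ones (adjusted p from 0.0630 to 0.268). Nrp1, the coreceptor of class 3 semaphorins and of VEGF, held 1642 and 1617 normalized counts in THOC5 osteogenic libraries, 1478 and 1518 in THOC5 growth libraries, 976 and 1029 in GFP osteogenic libraries, and 1484 and 1589 in GFP growth libraries. It fell 1.53-fold in GFP cells (log2 -0.62 ± 0.08, limma adjusted p = 2.91e-04). Nrp2, the neuropilin that Sema3f binds, lay between 14.1 and 21.5 normalized counts over all libraries and did not pass.

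The Robo receptors tested did not pass in any comparison of the main limma fit. Robo1, the main Slit receptor measured here, held 301 and 298 normalized counts in THOC5 osteogenic libraries, 307 and 369 in THOC5 growth libraries, 292 and 310.4 in GFP osteogenic libraries, and 361 and 342 in GFP growth libraries (log2 -0.22, limma adjusted p = 0.195 in GFP cells). Both values in GFP osteogenic libraries lay below those in GFP growth libraries, and 1 of them lay among those of the THOC5 osteogenic and growth libraries. Robo3 lay between 32.8 and 44.5 normalized counts and Robo2 between 8.65 and 33.2. Robo2 was lower in GFP osteogenic than in GFP growth cells (log2 -1.09 ± 0.38) but missed the threshold (limma adjusted p = 0.0646). It passed with a filter of at least 10 normalized counts in 2 libraries and with a replicate block.

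**Figure D3:**
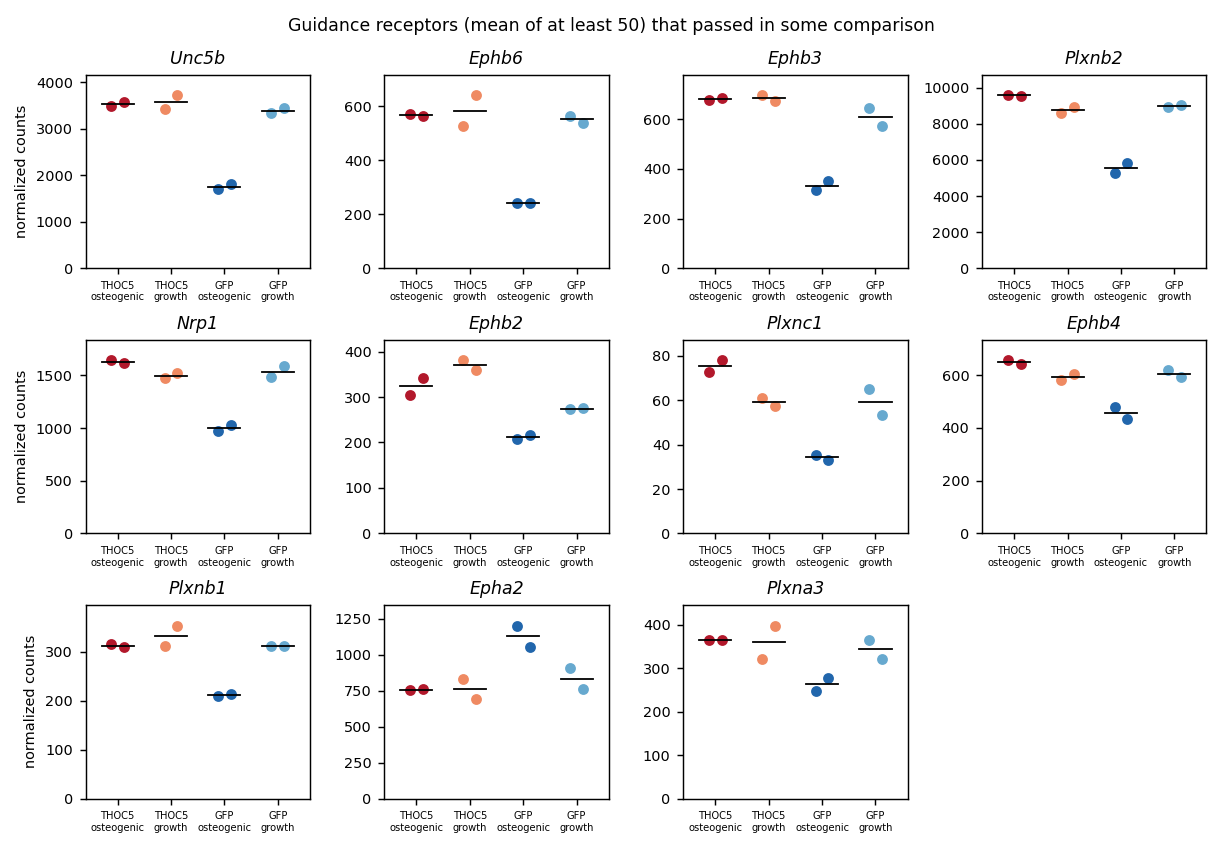
Normalized counts of guidance receptors with a mean of at least 50 that passed in some comparison, drawn per library with a bar at the mean of 2 libraries. Both GFP osteogenic points lie below the other 6 in each panel except that of Epha2, where they lie above them at 1202 and 1052.

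In THOC5 cells the same medium change gave no call. Of the 67 tested members 0 passed in THOC5 osteogenic against THOC5 growth cells by limma, edgeR and DESeq2, where 0.54% of all genes passed by limma. An unadjusted limma p under 0.05 was found for 4 of the 67 members and for 1282 of all 22575 genes. Slit3 changed by log2 -0.16 ± 0.12 there, Sema3f by 0.02 ± 0.09, Sema6d by -0.01 ± 0.13, Unc5b by -0.01 ± 0.08 and Draxin by -0.53 ± 0.27. In growth medium, 0 of the 67 passed in THOC5 against GFP cells by the same 3 tools, where 0.00443% of all genes passed by limma. Again 4 of the 67 had an unadjusted limma p under 0.05, beside 1152 of all 22575 genes. The highest log2 difference among the best measured of these genes, Ntn3 at 0.70 ± 0.23 with 116 and 115 normalized counts in THOC5 growth libraries against 87.4 and 57.2 in GFP growth libraries, had an adjusted p of 0.906. Ephb2 had the smallest unadjusted limma p in that comparison (0.00145, adjusted p = 0.906), being higher in THOC5 growth cells (log2 0.43 ± 0.10). A p above the threshold with 2 libraries a group does not show that levels were the same.

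Whether the medium response itself differed between the cells was tested as the interaction, the THOC5 response minus the GFP response. It passed for 15 of the 67 members, 14 positive and 1 negative, or 22.4% against 9.22% of all genes (5.3% positive and 3.92% negative). Among members with a mean of at least 50 normalized counts it passed for 13 of 40 (32.5%), against 18% of all genes at that level. The interaction was 3.38 ± 0.38 for Draxin on the log2 scale (limma adjusted p = 7.39e-04), 2.07 ± 0.17 for Slit3 (2.87e-04), 1.90 ± 0.18 for Sema6d (3.29e-04) and 1.37 ± 0.12 for Sema3f (2.87e-04). Among receptors it was 1.15 ± 0.15 for Ephb6 (limma adjusted p = 0.00138), 0.94 ± 0.11 for Unc5b (9.94e-04), 0.87 ± 0.14 for Ephb3 (0.00361), 0.82 ± 0.12 for Plxnb2 (0.00221) and 0.74 ± 0.11 for Nrp1 (0.00282). These 9 calls were kept without any single library, but under limma without its trend option those of Slit3 and Sema3f were kept and the other 7 were not (adjusted p from 0.0532 to 0.103).

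For some members with a call in GFP cells and none in THOC5 cells the difference between the responses did not pass. The interaction was 1.01 ± 0.32 for Ntn3 (limma adjusted p = 0.0772), 0.46 ± 0.14 for Plxnb1 (0.0718), 0.18 ± 0.15 for Ephb2 (0.523), -0.44 ± 0.17 for Epha2 (0.132) and -1.71 ± 0.64 for Efna3 (0.128). For Ephb2, THOC5 osteogenic libraries lay at 305 and 342 normalized counts, below THOC5 growth libraries at 380.4 and 360.0, and the log2 change of -0.20 ± 0.10 in THOC5 cells had the sign of the -0.37 ± 0.10 in GFP cells.

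**Figure D4:**
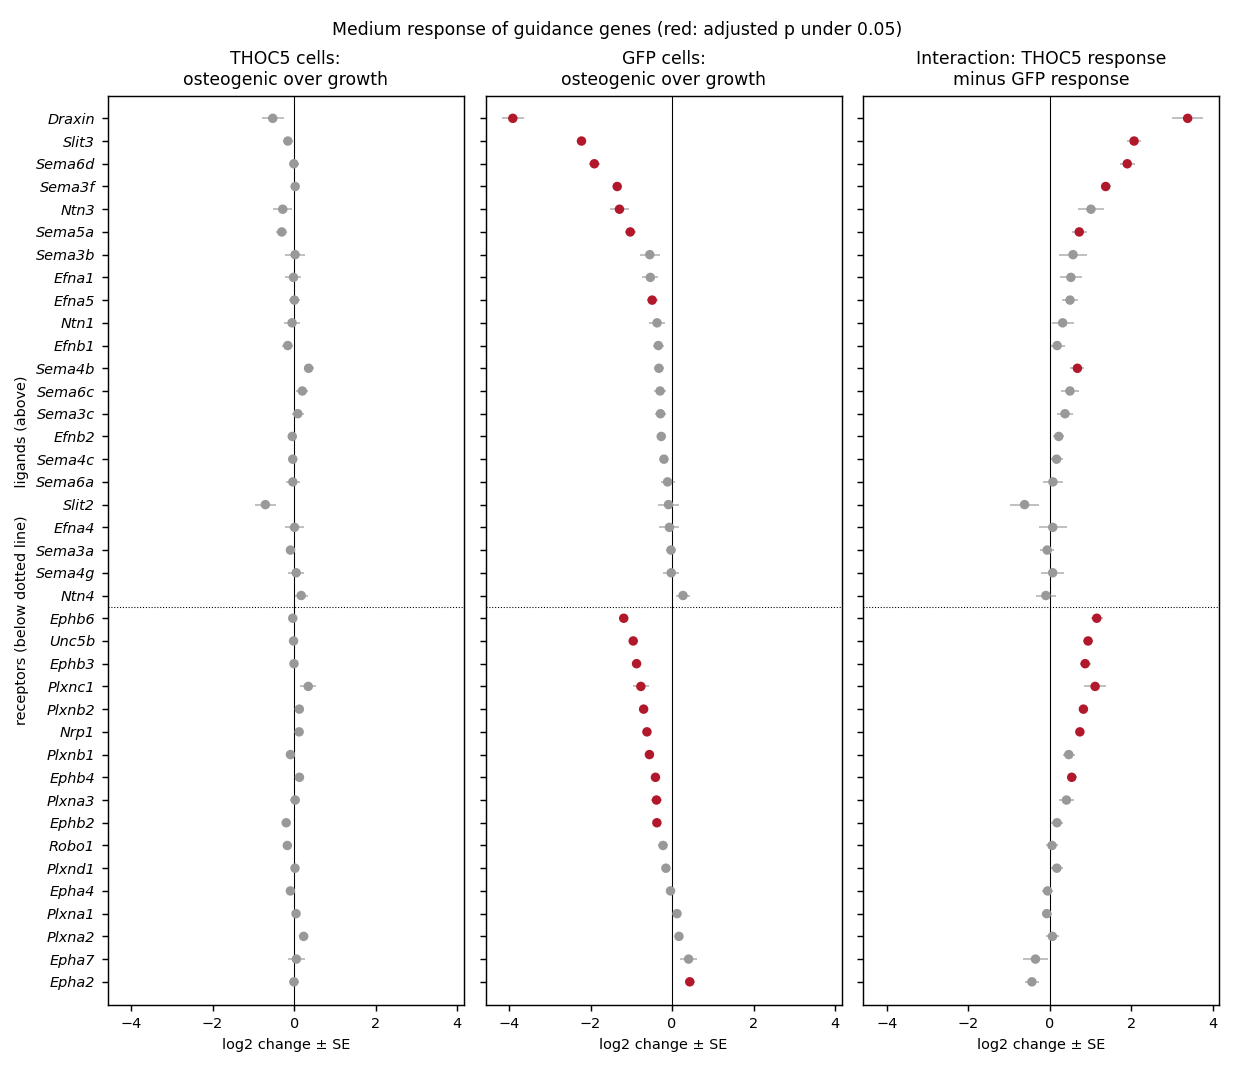
Log2 change in normalized count with its SE for the 39 guidance genes with a mean of at least 50 normalized counts, in THOC5 cells, in GFP cells and as the interaction of both, with ligands above the dotted line, receptors below it, and red for a limma adjusted p under 0.05. No THOC5 point is red, and most red points in GFP cells lie left of 0, from Draxin at -3.91, with Epha2 at 0.44 to the right.

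In osteogenic medium, THOC5 cells were set against GFP cells. Of the 67 tested members 23 passed, 20 higher and 3 lower in THOC5 osteogenic cells, or 34.3% against 22% of all genes. By direction, 29.9% were higher against 11.3% of all genes and 4.48% lower against 10.7%. Among members with a mean of at least 50 normalized counts 19 of 40 (47.5%) passed, near the 40.2% of all genes at that level, with 18 higher and 1 lower against 20.7% and 19.5% of all such genes. With libraries scaled to their totals, which moves the median of all genes to -0.16, 16 members were higher and 5 lower. Under that scaling 1662 of all 22575 genes were higher and 4065 lower. This comparison uses the same 2 GFP osteogenic libraries as the medium comparison in GFP cells, so its values follow in part from those already given and are not a second line of evidence.

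Draxin was 15.3-fold higher in THOC5 osteogenic than in GFP osteogenic cells (log2 3.93 ± 0.27, limma adjusted p = 6.06e-06), Slit3 4.66-fold (log2 2.22 ± 0.12, 1.90e-06), Sema6d 4.23-fold (log2 2.08 ± 0.13, 3.40e-06) and Sema3f 2.86-fold (log2 1.51 ± 0.09, 2.44e-06). Ntn3 was 3.26-fold higher, Sema6b 3.04-fold and Sema5a 1.98-fold, the Sema6b call being lost without THOC5 osteogenic replicate 1 (adjusted p = 0.0643). Among receptors Ephb6 was 2.34-fold higher, Plxnc1 2.16-fold, Ephb3 2.05-fold, Unc5b 2.02-fold, Plxnb2 1.73-fold, Nrp1 1.63-fold, Ephb2 1.52-fold, Plxnb1 1.47-fold and Ephb4 1.42-fold. For Ephb2 the log2 difference was 0.61 ± 0.10 here and 0.43 ± 0.10 between the same cells in growth medium, where it did not pass. Sema3e was 4.41-fold lower in THOC5 osteogenic cells, Efna3 3.53-fold and Epha2 1.48-fold. All 3 lost their call without GFP osteogenic replicate 1 and without THOC5 osteogenic replicate 2, and Efna3 and Epha2 also without THOC5 osteogenic replicate 1 (adjusted p from 0.0988 to 0.101 for Sema3e, 0.0763 to 0.128 for Efna3 and 0.0568 to 0.0692 for Epha2).

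Sema4b, Sema6c and Plxna4 passed in this comparison and had not in GFP cells. Sema4b held 449.8 and 375 normalized counts in THOC5 osteogenic libraries, 309 and 334 in THOC5 growth libraries, 262 and 312 in GFP osteogenic libraries, and 345 and 371 in GFP growth libraries, so the THOC5 osteogenic libraries were the highest of the 8. It was 1.44-fold higher than in GFP osteogenic cells (log2 0.52 ± 0.12, limma adjusted p = 0.0107), but not without THOC5 osteogenic replicate 1 or GFP osteogenic replicate 1 (adjusted p of 0.124 and 0.111). Sema6c held 116 and 116 normalized counts in THOC5 osteogenic libraries against 77.0 and 79.6 in GFP osteogenic libraries (limma adjusted p = 0.0193), and Plxna4 held 43.6 and 43.2 against 19.9 and 24.1 (limma adjusted p = 0.0274). Neither kept its call without any single one of the 4 libraries compared, with adjusted p from 0.0597 to 0.113 for Sema6c and 0.0591 to 0.165 for Plxna4. Plxna3 was 1.38-fold higher (limma adjusted p = 0.0187), with adjusted p from 0.106 to 0.147 without either THOC5 osteogenic library or GFP osteogenic replicate 1.

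The authors' deposited table, which gives adjusted p-values of its own, called 19 members in GFP osteogenic against GFP growth cells, 3 higher and 16 lower, and all 19 were also called here. Ephb2, Sema7a, Plxnc1 and Plxna3 were called here only. In THOC5 osteogenic against GFP osteogenic cells the authors' deposited table called 22 members, 19 higher and 3 lower, of which 21 were also called here. Sema6c and Plxna4 were called here only, and Efna5 in the authors' deposited table only. Both sets of calls come from the same libraries, so their overlap is not independent. The share of all genes called in the authors' deposited table was not counted. For the other 2 pairwise comparisons the authors' deposited table called 0.

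Genes that carry guidance signals into the cell were read from lists chosen by pathway. In GFP osteogenic against GFP growth cells, 5 of 29 coreceptors and further guidance genes rose and 12 fell, with a median log2 change of -0.32. That is 58.6% called, against 20.8% of all genes and 38% of genes with a mean of at least 50 normalized counts. Sdc3, the heparan sulfate proteoglycan syndecan-3, held 2111 and 2153 normalized counts in GFP osteogenic libraries against 4177 and 4395 in GFP growth libraries (log2 -1.01 ± 0.10, limma adjusted p = 4.80e-05). Chl1, a neural adhesion molecule and semaphorin coreceptor, held 9.51 and 17.9 against 119 and 82.4 (log2 -2.83 ± 0.29, limma adjusted p = 6.87e-05). These decreases left no overlap between the libraries compared, and Kirrel, an immunoglobulin adhesion molecule, fell as well (log2 -0.71). Enpp2, the secreted enzyme autotaxin, rose, with 124 and 71.6 normalized counts in GFP osteogenic libraries against 12.8 and 18.6 in GFP growth libraries (log2 2.53 ± 0.33, limma adjusted p = 3.43e-04).

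Of 29 semaphorin and plexin signal transducers, 4 rose and 10 fell in GFP osteogenic against GFP growth cells (48.3% called), with a median log2 change of -0.16. The smallest p-values were those of Mical2 (log2 -0.96 ± 0.08) and Mical1 (log2 -0.91 ± 0.11), enzymes of the MICAL family that oxidise actin downstream of plexins, of the plexin-associated exchange factor Farp1 (log2 -0.59 ± 0.09) and of the collapsin response mediator gene Dpysl3 (log2 -0.51 ± 0.08). Mical2 held 2784 and 2959 normalized counts in GFP osteogenic libraries against 5576 and 5588 in GFP growth libraries. Of 22 Eph and ephrin transducers 4 rose and 8 fell (54.5% called), with the phosphatase Ptpn13 (log2 -0.94 ± 0.12), the Rac activator Tiam1 (log2 -0.94 ± 0.13), Sipa1l1 (log2 -0.76 ± 0.10) and the lipid phosphatase Inppl1 (log2 -0.61 ± 0.09) at the smallest p-values. Of 27 tested Slit, Robo, netrin and Dcc transducers 2 rose and 5 fell (25.9% called), and Dapk1, a kinase downstream of Unc5 receptors, was lower (log2 -0.60 ± 0.09). The shares called in these transducer lists stand beside 20.8% of all genes and 38% of genes with a mean of at least 50 normalized counts.

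In THOC5 osteogenic against GFP osteogenic cells 11 of the 29 coreceptors and further guidance genes were higher and 5 lower (55.2% called), and 10 of the 29 semaphorin and plexin transducers were higher and 3 lower (44.8%). Of the 22 Eph and ephrin transducers 8 were higher and 3 lower (50.0%), and of the 27 Slit, Robo, netrin and Dcc transducers 5 were higher and 5 lower (37%). Of all genes 22% passed in this comparison, and of those with a mean of at least 50 normalized counts 40.2%. Mical2 was at 5884 and 5900.5 normalized counts in THOC5 osteogenic libraries against 2784 and 2959 in GFP osteogenic libraries (log2 1.04 ± 0.08, limma adjusted p = 8.84e-06). Dpysl4 and Magel2 were not analysed here.

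Markers of other cell types were read beside these results, and their part in them was not tested. The 6 smooth muscle markers all fell in GFP osteogenic cells, with summed levels of 24980 to 26830 normalized counts in THOC5 osteogenic, 30367 to 30982 in THOC5 growth, 11883 to 13767 in GFP osteogenic and 24470 to 28371 in GFP growth libraries. Of 6 adventitial fibroblast markers Pdgfra, Lum and Dcn fell, and the list summed to 15206 to 16485 in THOC5 osteogenic, 18587 to 19340 in THOC5 growth, 4719 to 6581 in GFP osteogenic and 14698 to 17068 in GFP growth libraries. Dpt and Pi16 were at 0 in some libraries. In GFP osteogenic against GFP growth libraries neuron markers fell in 1 of 4 cases and summed to 206 to 211 against 284 to 298, with Rbfox3, Snap25 and Nefl at 0 in some libraries. Endothelial markers fell in 1 of 4 cases, Vwf, and summed to 36.7 to 55.4 against 75.8 to 117, with Tie1 at 0 in some libraries. Macrophage markers rose in 1 and fell in 1 of 4 cases and summed to 454 to 474 against 488 to 498, with Ptprc, Adgre1 and Itgam at 0 in some libraries. Of 5 tested Schwann cell markers Mbp fell, and the list summed to 488 to 573 in GFP osteogenic against 802 to 897 in GFP growth libraries, with Ngfr at 0 in some libraries. The summed levels of all 6 lists were thus lower in both GFP osteogenic libraries than in both GFP growth libraries, and those of the neuron, endothelial, Schwann cell and macrophage lists were low beside the smooth muscle list.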

How the data were processed

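Libraries (8) were prepared with the TruSeq RNA kit V2, per the labels' protocols. That kit keeps no strand information, so antisense and overlapping genes cannot be separated. The deposited table holds a signal for each of 27249 genes and each library, a read count scaled by the size factor of its library. Multiplying each of the authors' values by that factor gave whole reads for 100% of values within a tolerance of 0.001, the largest distance being 1.34e-09, and 0 per-sample columns were left unused. For 4 comparisons the authors' deposited table lists a p-value, raw and adjusted, a test statistic (score) and a log2 fold change with its SE, per the file headers. FastQC, Bowtie2, MACS2, SAMtools and mm10 are named without roles in the submitters' processing notes. How reads were counted and on which annotation is not given in the sources used here.

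Groups follow the sample titles, and columns were matched to samples through the description label. The design allowed for counts or normalized values. As the values were normalized, limma 3.58.1 (R 4.3.3) with its trend option was fitted to log2(normalized count + 1) for the 22575 genes with at least 1 normalized count in at least 2 libraries, all 8 libraries in 1 fit with 4 groups and no block. P-values were Benjamini-Hochberg adjusted over all genes tested, with a threshold of 0.05, and measure the spread between libraries, which may be technical. edgeR 4.0.16 and DESeq2 1.42.0 on the recovered reads, other pseudocounts, filters and scalings, limma without trend, fewer libraries and a replicate block were alternatives, and the procedure was tested on simulated data. Members are the genes whose symbol matches the pattern of the named families. Those with a mean of at least 50 normalized counts that passed in any comparison, and the most abundant member of each family, are named. Many are given with every library's value, and others with the libraries of the groups compared or with a range. From each pathway list up to 4 genes with the smallest p are named. Members, lists and tests were chosen with earlier results of these data known. Coordinates and exon lengths come from GENCODE M21 (GRCm38), in which all 72 symbols had 1 match, and promoters from RefSeq (GRCm38.p6), in which 62 members had an entry. In the Schwann cell marker list 1 gene is not reported here and is left out of the sum.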

Additional observations from a re-analysis of the deposited data

Results flagged for a closer look

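For 15 guidance genes the response to osteogenic medium differed between THOC5 and GFP cells by the test of the difference itself, the interaction in the limma fit over all 8 libraries (adjusted p under 0.05). Values are the THOC5 response minus the GFP response on the log2 scale. Among ligands the difference was 3.38 for Draxin, 2.07 for Slit3, 1.90 for Sema6d, 1.65 for Sema6b, 1.37 for Sema3f, 0.72 for Sema5a, 0.68 for Sema4b and -2.96 for Sema3e. Among receptors it was 1.15 for Ephb6, 1.11 for Plxnc1, 0.94 for Unc5b, 0.87 for Ephb3, 0.82 for Plxnb2, 0.74 for Nrp1 and 0.54 for Ephb4.

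Of these, Sema5a, Sema4b, Sema6b, Sema3e, Ephb4 and Plxnc1 lost their call without some single library. Their adjusted p without such a library ran from 0.0509 to 0.146 for Sema5a, 0.0544 to 0.155 for Sema4b, 0.0685 to 0.184 for Sema6b, 0.0518 to 0.134 for Sema3e, 0.0519 to 0.109 for Ephb4 and 0.0666 to 0.140 for Plxnc1. Each of these 6 calls was lost without THOC5 osteogenic replicate 1, likewise without THOC5 osteogenic replicate 2 or THOC5 growth replicate 1, and also without 3 or 4 of the other libraries.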

How the results depend on the processing

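No alternative turned the direction of a called member. The count in GFP cells (23) was 15 under limma without trend and 14 without GFP osteogenic replicate 1, and leaving out single libraries gave 14 to 23. In THOC5 osteogenic against GFP osteogenic cells (23) single libraries left out gave 16 to 23. The interaction count (15) was 2 under limma without trend, with 9 to 12 when single libraries were left out: it was 9 without THOC5 osteogenic replicate 1, THOC5 osteogenic replicate 2 or THOC5 growth replicate 1. The cause was not tested. For THOC5 osteogenic against THOC5 growth and for THOC5 growth against GFP growth the count was 0 under each alternative run. Of the calls, 12 of 23 in GFP cells and 15 of 23 in THOC5 against GFP osteogenic cells were kept under all 19 alternatives, and 2 of 15 interactions (Sema3f and Slit3) under all 18. Scaling to library totals moved the median interaction of all genes to -0.10 and left 11 calls, 10 positive and 1 negative. Of all 22575 genes 2268 had a call under that scaling, 887 positive and 1381 negative. edgeR called 24 members in GFP cells, 24 in THOC5 against GFP osteogenic cells and 16 interactions, and DESeq2 called 19, 22 and 13. Of all genes tested, edgeR called 4840, 5419 and 2458, and DESeq2 3836, 4221 and 1926. Under limma without trend the calls over all genes went from 4698 to 2154 in GFP cells and from 2082 to 172 for the interaction. A library left alone in its group was assumed to vary like the other groups.

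The labels state no pairing by replicate number. Deviations of same-numbered libraries from their group means correlated between -0.188 and 0.402 across 10655 genes, which are not independent replicates. The value of 0.402 was that between THOC5 growth and GFP growth libraries, and a pairing within growth medium alone was not tested. With a replicate block the counts were 23 in GFP cells, 24 in THOC5 against GFP osteogenic cells, 15 for the interaction and 0 for the other comparisons. With 2 libraries a group, small changes of genes under 50 normalized counts are at the limit of what this depth shows.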

Other observations

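Several abundant guidance genes did not pass in any comparison of the limma fit. Plxna1, a receptor of class 6 semaphorins, lay between 3706 and 4359 normalized counts over the 8 libraries and passed in the comparisons with GFP osteogenic cells when libraries were scaled to their totals. Sema3a lay between 1358 and 1744 and Epha4 between 1266 and 1551. Plxna2, another class A plexin, held 519 and 447 normalized counts in THOC5 osteogenic libraries, 411 and 408 in THOC5 growth libraries, 490.4 and 446 in GFP osteogenic libraries, and 389 and 444 in GFP growth libraries. Epha7, an EphA receptor, held 47.3 and 62.9 in THOC5 osteogenic libraries, 47.3 and 58.3 in THOC5 growth libraries, 78.7 and 70.7 in GFP osteogenic libraries, and 51.3 and 61.1 in GFP growth libraries, so both GFP osteogenic values were the highest of the 8, and the gene did not pass in any comparison.

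Efnb3, an ephrin-B, held 8.18 and 9.39 normalized counts in THOC5 osteogenic libraries, 4.83 and 7.64 in THOC5 growth libraries, 21.6 and 11.6 in GFP osteogenic libraries, and 4.66 and 6.65 in GFP growth libraries. Its difference in GFP cells (log2 1.36 ± 0.46) missed the threshold in limma (adjusted p = 0.0572) and passed under 4 of the alternatives.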
